A study of Rattus norvegicus with 18 samples.

Results

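The genes described here are 9 heat shock chaperones of the cytosol and of mitochondria, measured in the cerebral cortex of rats after subarachnoid hemorrhage (SAH). They were taken by symbol from the deposited table of 30735 genes, each symbol matched 1 row, and all 9 passed the filter on low counts that left 18444 genes for testing. The rows are Hspa1a (ENSRNOG00000045654), Hspa8 (ENSRNOG00000034066), Dnajb1 (ENSRNOG00000021824), Hsph1 (ENSRNOG00000000902), Bag3 (ENSRNOG00000020298), Hsp90aa1 (ENSRNOG00000059714), Hspb1 (ENSRNOG00000023546), Hspd1 (ENSRNOG00000014525) and Hspe1 (ENSRNOG00000051624). RNA came from 18 adult Sprague Dawley rats without a stated genetic change, 1 library per rat. The sham group (n = 6) had the neck surgery without perforation of an artery, and the SAH 1d and SAH 7d groups (n = 6 each) were collected 1 and 7 days after a filament was pushed through the artery from inside. Neither the sex of the rats nor the day on which sham rats were collected is given in the sources used here. The study's methods name the entire cortex of the operated side, whereas the deposited protocol names both sides and speaks of mice. The identifiers in the tables are rat Ensembl genes.

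Chaperones of this group bind unfolded proteins and help them to fold, to be refolded or to be handed over for degradation. Most of these genes are read at a higher rate when heat shock factor 1 (HSF1) is set free by misfolded protein and binds heat shock elements, which are inverted repeats of the letters GAA and TTC. In the brain, Hspa1a and Hspb1 are known as stress-induced genes with little RNA in undisturbed cortex, while Hspa8, Hspd1 and Hspe1 are used by all cells at all times. Hsp90aa1 is stress-inducible and also abundant in undisturbed neurons.

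The libraries held between 27270026 and 38271014 counts, with no normalization. Levels are given as deposited FPKM, which are fragments scaled to transcript length and library size, and changes as log2 fold changes that edgeR fitted to the counts with their standard errors (SE). A gene counts as changed at a Benjamini-Hochberg adjusted p under 0.05 over all 18444 tested genes, and as a DEG when the log2 fold change is also at least 1 in size, which are the thresholds of the study. SAH 1d-3 and SAH 7d-5 stood apart from their groups. The summed level of 5 macrophage genes was 626 CPM (counts scaled to library size) in SAH 1d-3 and 93.6 to 128 CPM in the other SAH 1d libraries. It was 8749 CPM in SAH 7d-5 and 90.4 to 279.6 CPM in the other SAH 7d libraries. The summed level of 7 neuronal genes lay between 2383 CPM, in SAH 7d-5, and 9867 CPM. No gene of the neuronal, astrocyte or oligodendrocyte lists was at 0 in all libraries. In bulk RNA, more cells of a type and more RNA per cell cannot be told apart.

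The promoter windows of 8 of the 9 genes are in RefSeq's tables for the GRCr8 rat assembly, each from 250 bases before to 50 bases after the annotated start. Hsp90aa1 has no entry. The windows were searched on both strands for the pairs of inverted repeats GAANNTTC and TTCNNGAA and for the longer form in which the 2 pairs overlap by a shared repeat, so that 3 repeats alternate in direction. At least 1 pair was found in 7 of the 8 windows and in 15.9% of all 33469 windows. The longer form was found in 4 of the 8, those of Hspa8, Hsph1, Hspd1 and Hspe1, and in 0.798% of all windows. GAANNTTC was in 7 of the 8 windows (8.59% of all) and TTCNNGAA in the same 4 as the longer form (8.77% of all). These are letters in a window, not measured binding, and the Hspa1a window (chr20:3859506-3859805, plus strand) held none of the 3 forms. The stretches that carry the repeats are shown because all of these genes changed in the comparisons given further on. They are written in the direction of transcription with the repeats in capitals.
Hspa8: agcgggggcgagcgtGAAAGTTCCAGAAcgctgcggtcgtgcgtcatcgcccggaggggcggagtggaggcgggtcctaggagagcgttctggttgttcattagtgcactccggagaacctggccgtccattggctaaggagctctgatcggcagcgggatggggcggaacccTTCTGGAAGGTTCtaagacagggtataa
Hsph1: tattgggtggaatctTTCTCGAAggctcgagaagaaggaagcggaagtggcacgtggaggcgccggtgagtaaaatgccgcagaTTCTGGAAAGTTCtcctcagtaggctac
Hspd1: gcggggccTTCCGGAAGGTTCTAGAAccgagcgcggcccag
Hspe1: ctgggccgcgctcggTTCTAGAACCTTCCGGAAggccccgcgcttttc
Dnajb1: gcatcgggaggggcgGAAGGTTCtgg
Bag3: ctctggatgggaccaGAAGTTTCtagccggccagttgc
Hspb1: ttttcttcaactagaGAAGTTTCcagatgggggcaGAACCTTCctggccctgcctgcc
In GRCr8 the stretches are chr8:50080286-50080486 (plus strand) for Hspa8, chr12:10427248-10427359 (plus) for Hsph1, chr9:64084247-64084287 (minus) for Hspd1, chr9:64084247-64084294 (plus) for Hspe1, chr19:41431142-41431167 (minus) for Dnajb1, chr1:192533313-192533350 (plus) for Bag3 and chr12:26432388-26432445 (minus) for Hspb1. A second GAANNTTC of Dnajb1, 18 to 25 bases after its start, is not shown. Hspd1 and Hspe1 lie head to head, with starts 290 bases apart, and their windows share 211 bases. The repeat in the Hspd1 line is therefore the same DNA as the one in the Hspe1 line, read from the other strand. The counts of windows given above include it for both genes.

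In sham cortex the 9 genes spanned a wide range of levels. Hsp90aa1, the stress-inducible cytosolic HSP90, and Hspa8, the constitutive cytosolic HSP70, were highest, with 433 ± 42.0 and 405 ± 40.6 FPKM (mean ± SD, n = 6), and their ranges overlapped. Hspd1, the chaperonin of the mitochondrial matrix, had 109 ± 7.48 FPKM, and Hsph1, which exchanges the nucleotide of HSP70, had 105 ± 10.3 FPKM, again with overlapping ranges. Hspe1, the lid of the Hspd1 chaperonin, followed with 56.4 ± 8.47 FPKM, and Dnajb1, a J-domain protein that delivers substrates to HSP70, with 34.3 ± 5.12 FPKM. Their ranges overlapped neither each other nor those of their neighbours in the order. The lowest levels were those of the small heat shock protein Hspb1 (4.54 ± 1.64 FPKM), of Bag3 (3.20 ± 1.08 FPKM), which links HSP70 to small heat shock proteins and to autophagy, and of the inducible HSP70 gene Hspa1a (0.660 ± 0.736 FPKM). Among these 3 genes each range overlapped that of its neighbour. At SAH 1d the order was Hsp90aa1 (870.4), Hspa8 (621), Hsph1 (450.0), Hspd1 (302), Hspa1a (206), Hspb1 (193), Hspe1 (184), Dnajb1 (76.2) and Bag3 (19.0 FPKM). Hspa1a and Hspb1 then lay beside Hspd1 and Hspe1, and from Hspa8 down to Hspe1 each range overlapped that of the next gene. At SAH 7d the order was that of sham except that Hspa8 (455 FPKM) stood before Hsp90aa1 (411 FPKM), with overlapping ranges.

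**Figure D1:**
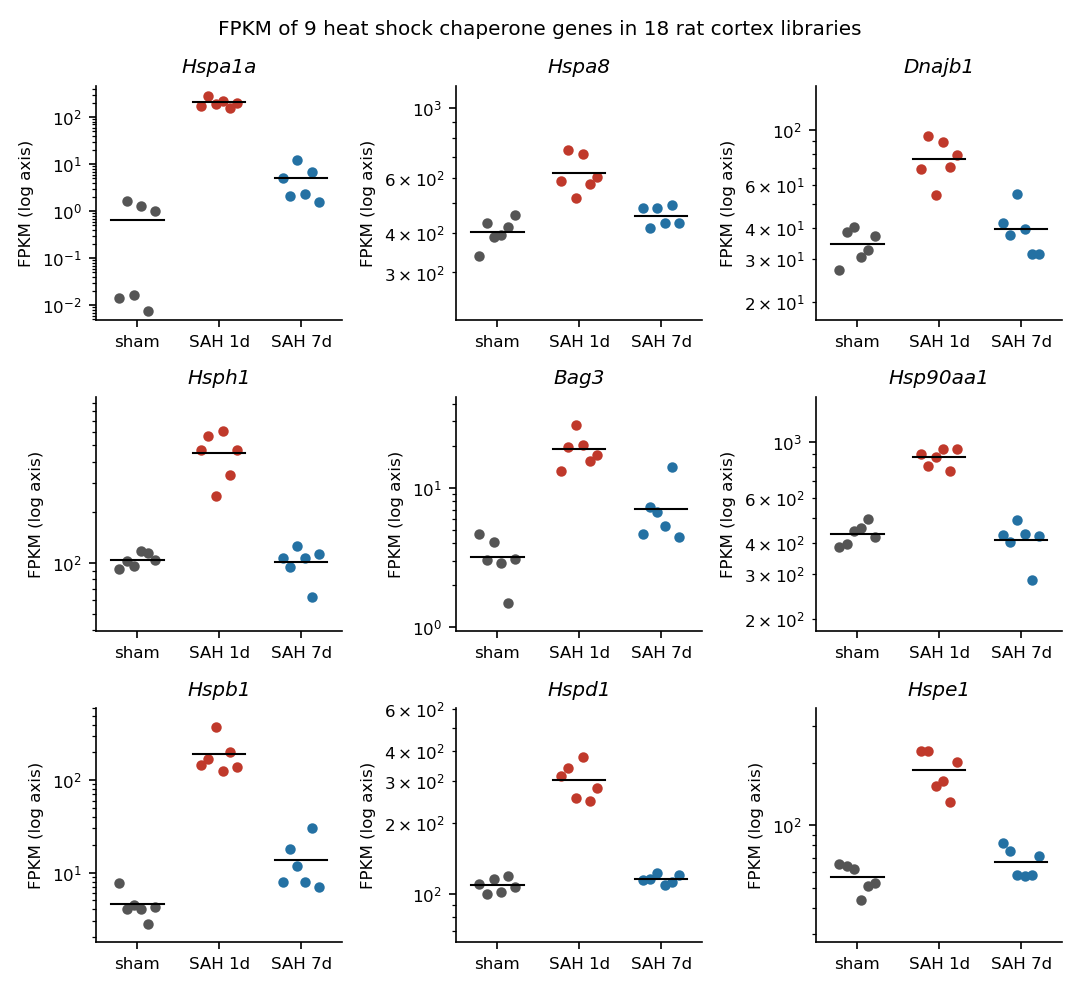
FPKM (log axis) of the 9 chaperone genes in each of the 18 libraries, with 1 point per rat and a bar at the arithmetic mean of each group of 6. All 6 SAH 1d points lie above all 6 sham points in every panel, and the sham points of Hspa1a fall into 3 near 0.01 and 3 near 1 FPKM.

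The comparison of SAH 1d with sham asks which genes differ 1 day after the hemorrhage. All 9 chaperone genes were higher at SAH 1d in the edgeR test, with adjusted p between 3.76e-06 and 0.00248, against 14.9% of all tested genes called higher (25.4% called in either direction, and 38.7% at an unadjusted p under 0.05). Their log2 fold changes had a median of 1.58, while the median over all tested genes was 0.01. The groups did not overlap for any of the 9, against 7.89% of tested genes with all SAH 1d libraries above all sham libraries and 5.41% with all below. As DEGs, with the fold threshold, 7 of the 9 were called (5.54% of tested genes were DEGs that rose, and 6.61% were DEGs in either direction). Together the 9 genes took up 0.278 ± 0.0197% of all counts in sham and 0.691 ± 0.0862% at SAH 1d.

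The cytosolic HSP70 system held both the largest and the smallest change. Hspa1a had 0.0145, 1.64, 0.0166, 1.27, 0.00762 and 1.02 FPKM in sham-1 to sham-6, from 2, 99, 2, 88, 1 and 67 counts. In the SAH 1d libraries it had 177, 288, 186, 225, 159 and 203 FPKM, from 9269 counts or more. The lowest SAH 1d library was thus far above the highest sham library. In sham-1, sham-3 and sham-5 its deposited FPKM was also low for its counts, at 0.217 to 0.230 FPKM per CPM against 0.459 to 0.525 in the other 15 libraries, and the log2 ratio of Hspa1a to Hspa8 between SAH 1d and sham is 9.51 from counts and 10.05 from FPKM. The fitted log2 fold change was 8.14 (SE 0.74, adjusted p = 2.46e-05), the 10th highest of all 18444 tested genes, and the ratio of the mean FPKM was 313. Hspa1a has a near-identical paralog, Hspa1b, which is on the list of further HSF1 targets used below but was not among the tested genes. How the authors' counting divided reads between the paralogs is not known, so the Hspa1a level is that of reads assigned to its row.

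Hspa8, whose protein does the same work in undisturbed cells, lay between 338 and 456 FPKM in sham (median 407) and between 516 and 733 FPKM at SAH 1d (median 596). It rose by 0.50 on the log2 scale (SE 0.09, adjusted p = 0.00248), short of the fold threshold of a DEG. Dnajb1 had 26.9, 34.9 and 40.2 FPKM in sham (lowest, median and highest) and 54.4, 74.9 and 94.5 FPKM at SAH 1d, a log2 fold change of 1.03 (SE 0.13, adjusted p = 0.000206). Neither gene had a SAH 1d library within the sham range.

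Hsph1 and Bag3, which both act on HSP70 by prompting nucleotide release, rose further than Hspa8 and Dnajb1. Hsph1 went from 91.8, 104 and 118 FPKM in sham to 251, 469 and 607 FPKM at SAH 1d (log2 fold change 1.99, SE 0.18, adjusted p = 2.46e-05). Bag3 went from 1.49, 3.06 and 4.64 FPKM to 13.3, 18.4 and 28.1 FPKM (log2 fold change 2.44, SE 0.26, adjusted p = 6.76e-05). The lowest Hsph1 value and the highest Bag3 value at SAH 1d belonged to the same library, SAH 1d-3.

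Hspb1, which holds unfolded proteins in a state from which HSP70 can refold them and acts on actin filaments, had the second largest change of the 9. Its sham libraries had 7.68, 4.07, 4.42, 4.04, 2.81 and 4.22 FPKM, and the SAH 1d libraries 146, 168, 377, 124, 203 and 138 FPKM in the order of their numbers. The log2 fold change was 5.28 (SE 0.35, adjusted p = 3.76e-06), the 35th highest of all tested genes. It was 4.96 (edgeR adjusted p = 8.92e-08) with SAH 1d-3 left out.

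Hsp90aa1, the HSP90 that completes the folding of kinases and steroid receptors, lay at 383, 434 and 495 FPKM in sham and at 771, 884 and 942 FPKM at SAH 1d. Its log2 fold change of 0.90 (SE 0.08, adjusted p = 2.46e-05) was under the fold threshold of a DEG, although no SAH 1d library came near the sham range.

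Both genes of the mitochondrial chaperonin rose. Hspd1 had 100.5, 109 and 119.7 FPKM in sham and 247, 296 and 379 FPKM at SAH 1d (log2 fold change 1.35, SE 0.11, adjusted p = 1.15e-05). Hspe1 had 43.8, 57.2 and 65.4 FPKM in sham and 129, 182 and 229 FPKM at SAH 1d (log2 fold change 1.58, SE 0.15, adjusted p = 3.59e-05). The 9 calls of this comparison held in all 24 alternative settings, apart from Hspa1a in the setting that keeps only genes with 10 counts in every library, which leaves it out.

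**Figure D2:**
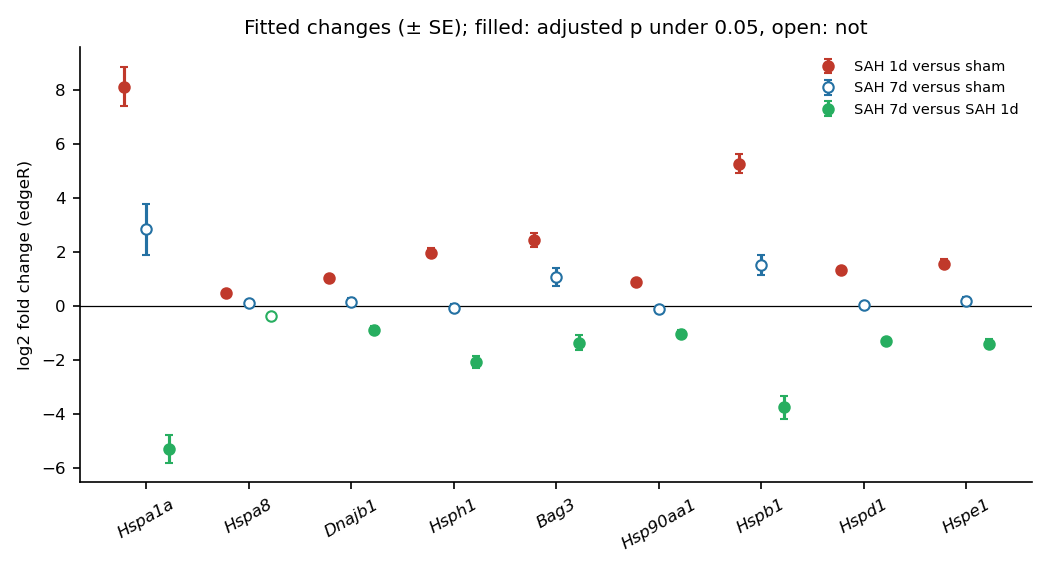
Fitted log2 fold changes of the 9 genes in the 3 comparisons, with bars of 1 SE either side, filled where the adjusted p is under 0.05. All SAH 1d versus sham points are filled and above 0, from 0.50 for Hspa8 to 8.14 for Hspa1a, all SAH 7d versus sham points are open, and 8 of the 9 SAH 7d versus SAH 1d points are filled and below 0.

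Some cell type markers also differed at SAH 1d, where 14.9% of all tested genes were called higher and 10.5% lower. All 7 neuronal genes had negative log2 fold changes and 6 of them passed the test, and their summed level was 5039 to 6096 CPM at SAH 1d and 6147 to 9867 CPM in sham. The summed level of 6 astrocyte genes was 4514 to 5681 CPM at SAH 1d and 2084 to 3811 CPM in sham. Of these 6 genes 1 rose, 1 fell and 4 were not called, and the one that rose was Gfap, named here after its value was seen (mean 124 FPKM in sham and 1089.9 FPKM at SAH 1d, adjusted p = 1.36e-06). Of 5 tested macrophage genes 3 were called higher, and their sum was 93.6 to 626 CPM at SAH 1d and 49.9 to 89.7 CPM in sham, without overlap. Of 7 immediate early genes 3 were called higher, with overlapping sums (220.1 to 1867 CPM at SAH 1d and 328 to 649 CPM in sham). Choroid plexus genes (3 genes) summed to 669 CPM in SAH 1d-4 and 971 CPM in SAH 1d-6, and to at most 61.2 CPM in any other library. Endothelial genes, of which 5 were tested, summed to 145 to 317 CPM at SAH 1d and 114 to 202 CPM in sham. The highest of these sums was that of SAH 1d-3, and the other SAH 1d libraries (145 to 176 CPM) lay within the sham range. Called higher were 1 of 3 choroid plexus, 1 of 5 endothelial, 1 of 6 mural cell and 1 of 3 T cell genes, and the 1 neutrophil gene tested. Of 6 microglial genes 1 was lower and 0 higher, and 0 of 6 oligodendrocyte, 0 of 4 meningeal fibroblast and 0 of 3 red cell genes were called. What part these cell types had in the changes of the chaperone genes was not tested.

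The comparison of SAH 7d with sham asks what differs 7 days after the hemorrhage, and it uses the same sham libraries as the first comparison. None of the 9 genes was called by the edgeR test, where 0% of all tested genes were called, and the lowest adjusted p of the 9 was 0.217. At an unadjusted p under 0.05, 3 of the 9 passed (Hspa1a, Hspb1 and Bag3), against 15.3% of tested genes. The DESeq2 Wald test, which called 2.49% of all tested genes, called 2, Hspb1 (log2 fold change 1.53, adjusted p = 0.00752) and Bag3 (log2 fold change 1.08, adjusted p = 0.0431), and no other setting called any. No gene of the 9 had groups without overlap, as 0.797% of tested genes had upward and 0.428% downward.

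Hspa1a had 4.98, 2.09, 12.5, 2.34, 6.84 and 1.54 FPKM in SAH 7d-1 to SAH 7d-6. Only SAH 7d-6 lay within the sham range, and the log2 fold change was 2.86 (SE 0.94, adjusted p = 0.236). Hspb1 had 7.94, 17.9, 11.7, 7.94, 30.4 and 6.98 FPKM, and its lowest library lay within the sham range, which sham-1 extended to 7.68 FPKM. By CPM, 3 of its 6 libraries (6.53, 7.28 and 7.32 CPM) lay within the sham range, whose top was 7.69 CPM. Its log2 fold change was 1.53 (SE 0.38, adjusted p = 0.217), and 1.15 (edgeR adjusted p = 0.130) with SAH 7d-5 left out.

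Bag3 had 4.43, 6.02 and 14.1 FPKM at SAH 7d (lowest, median and highest), with a log2 fold change of 1.08 (SE 0.32, adjusted p = 0.217). The highest value was again that of SAH 7d-5, and the next was 7.34 FPKM. The other 6 genes had log2 fold changes between -0.12 for Hsp90aa1 and 0.19 for Hspe1, with SEs between 0.07 and 0.14, and between them lay Hspa8 at 0.12, Dnajb1 at 0.15, Hspd1 at 0.04 and Hsph1 at -0.08. Hspd1 was the most even of these, with 109.6 to 123 FPKM at SAH 7d and 100.5 to 119.7 FPKM in sham. The sign of Hsph1 turned to a log2 fold change of 0.029 without SAH 7d-5, where it had its lowest value, 62.7 FPKM.

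The comparison of SAH 7d with SAH 1d shares its libraries with the other 2 comparisons. In it 8 of the 9 genes were lower at SAH 7d and 7 of them were DEGs, against 1.07% of tested genes called lower, 0.271% called higher and 0.542% that were DEGs with a fall. The SAH 7d libraries lay entirely below the SAH 1d libraries for 7 of the 9, against 2.11% of tested genes. The median log2 fold change of the 9 was -1.36, and that of all tested genes 0.03. The 9 genes took up 0.286 ± 0.0280% of all counts at SAH 7d.

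Hspa1a fell by 5.29 on the log2 scale (SE 0.51, adjusted p = 0.00038), to a mean of 5.05 ± 4.18 FPKM, and Hspb1 fell by 3.75 (SE 0.43, adjusted p = 0.00133), to 13.8 ± 9.09 FPKM. Hsph1 fell by 2.07 (SE 0.23, adjusted p = 0.00113) and had 62.7, 107 and 127 FPKM at SAH 7d. Hspe1 fell by 1.39 (SE 0.16, adjusted p = 0.00125), with 57.1, 64.4 and 82.5 FPKM. The groups did not overlap for any of these 4 genes.

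Hspd1 fell by 1.31 (SE 0.11, adjusted p = 0.000135), the smallest adjusted p of the 9 in this comparison, and Hsp90aa1 fell by 1.01 (SE 0.13, adjusted p = 0.00273), to between 285 and 491 FPKM. Bag3 fell by 1.36 (SE 0.28, adjusted p = 0.0348), with SAH 7d-5 at 14.1 FPKM just above SAH 1d-1 at 13.3 FPKM, and this call was lost in 9 of the 12 fits that left out 1 library, those without SAH 1d-2, SAH 1d-4, SAH 1d-5, SAH 1d-6 or any SAH 7d library other than SAH 7d-5 (adjusted p between 0.0568 and 0.0875). It was kept with SAH 7d-5 and SAH 1d-3 both left out (log2 fold change -1.51, adjusted p = 0.00024).

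Dnajb1 fell by 0.88 (SE 0.16, adjusted p = 0.0171), and its groups touched, at 54.4 FPKM in SAH 1d-3 and 54.8 FPKM in SAH 7d-3. Its adjusted p was 0.0508 without SAH 7d-2. Hspa8 was the 1 gene not called, with a log2 fold change of -0.38 (SE 0.10, adjusted p = 0.0965), although its 6 SAH 7d libraries (416 to 491 FPKM) all lay below its 6 SAH 1d libraries. It was called without SAH 7d-5 (log2 fold change -0.40, adjusted p = 0.0249). The number of all genes called in this comparison rests on the same library, with 248 genes called with it and 1530 without it.

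The balance between the inducible and the constitutive HSP70 gene can be read within a library, where library size cancels. Hspa1a made up 0.155 ± 0.174% of the summed FPKM of Hspa1a and Hspa8 in sham, 24.8 ± 2.33% at SAH 1d and 1.06 ± 0.818% at SAH 7d (n = 6 each). At SAH 1d the share lay between 21.7% and 28.2% in every library. On the log2 scale the ratio was higher by 10.05 at SAH 1d than in sham (two-sided exact permutation p = 0.00216, adjusted over the 3 comparisons 0.00325, 6 of 6 libraries above all sham libraries). It was higher by 4.77 at SAH 7d than in sham (exact p = 0.00433, adjusted 0.00433, 5 of 6 libraries above all sham libraries). The latter difference was 4.23 from counts, 3.16 with 0.1 added to both FPKM values, and between 3.95 (without sham-5) and 5.49 (without sham-2) with 1 library left out. That for SAH 1d was 8.39 with 0.1 added and between 9.23 (without sham-5) and 10.77 (without sham-2) with 1 library left out. The sham log2 ratios were split, at -14.5, -14.5 and -15.7 in sham-1, sham-3 and sham-5, where Hspa1a had 1 or 2 counts. They were -8.04, -8.28 and -8.81 in sham-2, sham-4 and sham-6, against -8.13 to -5.27 at SAH 7d. Leaving out 1 library does not remove this split. Without SAH 7d-3 the exact p of the SAH 7d difference from sham was 0.0346, and edgeR did not call Hspa1a in this comparison (adjusted p = 0.236). Between SAH 7d and SAH 1d the difference was -5.28 (exact p = 0.00216, adjusted 0.00325). With 924 splits of 6 against 6, 0.00216 is the smallest p that can be reached.

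The Hspd1 and Hspe1 genes, which share the promoter stretch shown above and whose proteins form 1 complex, were compared in the same way. The ratio of Hspd1 to Hspe1 FPKM was 1.98 ± 0.324 in sham, 1.69 ± 0.373 at SAH 1d and 1.77 ± 0.280 at SAH 7d, with overlapping ranges from 1.37 to 2.34. The log2 ratio differed by -0.24 between SAH 1d and sham (two-sided exact permutation p = 0.152, adjusted 0.422), by -0.15 between SAH 7d and sham (exact p = 0.281, adjusted 0.422) and by 0.08 between SAH 7d and SAH 1d (exact p = 0.595, adjusted 0.595). These differences were within the spread between rats, whose SD of the log2 ratio was 0.23 to 0.30 in the 3 groups.

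**Figure D3:**
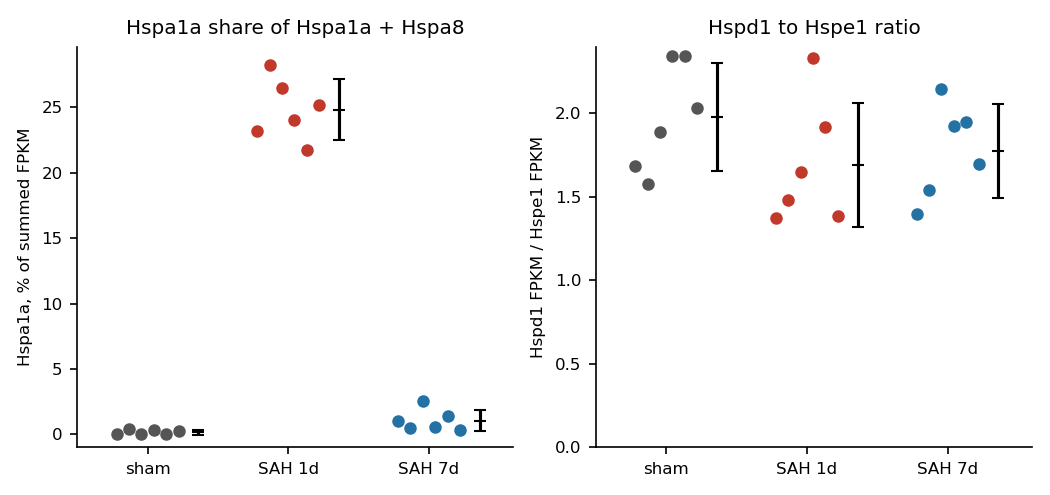
Left, Hspa1a as a percentage of the summed FPKM of Hspa1a and Hspa8, and right, the ratio of Hspd1 to Hspe1 FPKM, with 1 point per library and the mean ± SD beside each group of 6. The Hspa1a share is 21.7% to 28.2% in the SAH 1d libraries and at most 2.53% in all others, while the Hspd1 to Hspe1 ratios of the 3 groups overlap.

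The wider chaperone network was described with 8 lists of 78 further genes, of which 74 were tested. At SAH 1d 37 of the 74 were higher than in sham and 2 lower, against 14.9% and 10.5% of all tested genes, and 9 of them were DEGs, against 6.61%. The median log2 fold change of the 74 was 0.34. At SAH 7d against sham the count was 0 by edgeR and by the DESeq2 Wald test, with 9 of the 74 at an unadjusted p under 0.05, against 15.3% of all tested genes, so the list did not exceed the background. Between SAH 7d and SAH 1d, 15 were lower at SAH 7d, against 1.07% of all tested genes, with none higher. Without SAH 7d-5 the count was 26, against 4.99% of tested genes called lower.

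Among the heat shock factors and their regulator, Hsf1 itself rose a little (log2 fold change 0.38, SE 0.08, adjusted p = 0.00659), Hsbp1, which binds HSF1 and restrains it, fell by 0.18 (SE 0.06, adjusted p = 0.0395), and Hsf2 and Hsf4 were not called. The call of Hsbp1 was lost in 14 of 24 alternative settings, among them the fits without sham-2, sham-3, sham-4, sham-5, sham-6, SAH 1d-1, SAH 1d-2 or SAH 1d-5. Of 13 further HSF1 targets that were tested, 11 rose at SAH 1d and 9 were lower again at SAH 7d. Zfand2a, an arsenite- and heat-induced proteasome regulator, had the largest change (log2 fold change 2.09, SE 0.16, adjusted p = 9.6e-06), from a mean of 11.5 FPKM in sham to 52.8 at SAH 1d and 11.5 at SAH 7d. Serpinh1, the collagen chaperone of the endoplasmic reticulum, rose by 1.34 (SE 0.23), and Stip1, which joins HSP70 to HSP90, rose by 1.15 (SE 0.13). At SAH 7d Zfand2a was lower than at SAH 1d by a log2 fold change of -2.13 (SE 0.17), Dnaja1, another J-domain protein, by -1.08 (SE 0.13) and Stip1 by -1.07 (SE 0.15). Serpinh1 was not among the 9 called lower, with 23.1 ± 6.26, 63.3 ± 21.4 and 46.2 ± 37.9 FPKM (mean ± SD) in sham, SAH 1d and SAH 7d. Its edgeR adjusted p at SAH 7d was 0.674 against SAH 1d and 0.293 against sham.

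Of 14 other HSP70 and J-domain genes and HSP70 cochaperones, 6 rose at SAH 1d, led by Hspa2 (log2 fold change 1.16, SE 0.13), St13 (0.60, SE 0.08) and Bag2 (0.41, SE 0.12). Bag2 and Hspa2 were lower again at SAH 7d (log2 fold changes -0.68 and -0.63). Among 8 HSP90 cochaperones the changes went both ways, with Ptges3 (log2 fold change 0.50, SE 0.11) and Ppid (0.41, SE 0.10) higher, the phosphatase Ppp5c lower (-0.27, SE 0.08) and 5 not called. The call of Ppp5c was lost in 8 of 24 alternative settings, among them the fits without sham-2, sham-4, sham-5 or sham-6. Of 4 tested small heat shock proteins 2 rose, Hspb8, the partner of Bag3 (log2 fold change 1.85, SE 0.20), and Cryab (1.19, SE 0.23), and Hspb8 was lower at SAH 7d than at SAH 1d (log2 fold change -1.47, SE 0.20).

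All 8 subunits of the TRiC chaperonin of the cytosol, which folds actin and tubulin, rose at SAH 1d without reaching the fold threshold of a DEG. Their log2 fold changes ran from 0.24 to 0.62, the latter for Tcp1 (SE 0.08), and Tcp1 (log2 fold change -0.64) and Cct6a (-0.47) were lower at SAH 7d than at SAH 1d. The highest edgeR adjusted p of the 8 rises were 0.0247 for Cct7 and 0.0317 for Cct8. For companion genes that rose, the alternative settings are given only as counts, in the closing section. Of 11 other mitochondrial chaperones and proteases 3 rose, Hspa9 (log2 fold change 0.69, SE 0.10), which is the HSP70 of the matrix, Lonp1 (0.39) and Clpx (0.24), and Hspa9 alone of these was lower at SAH 7d than at SAH 1d (log2 fold change -0.68, SE 0.10). Of 12 chaperones of the endoplasmic reticulum 4 rose at SAH 1d, led by Dnajc3 (log2 fold change 0.83, SE 0.21), Pdia4 (0.65, SE 0.19) and Hyou1 (0.33, SE 0.10). The FPKM of Pdia4 was 20.5 ± 2.17, 34.9 ± 12.9 and 39.4 ± 26.5 (mean ± SD) in sham, SAH 1d and SAH 7d. At SAH 7d it was not called against sham (edgeR adjusted p = 0.249) or against SAH 1d (edgeR adjusted p = 0.809). The means of Dnajc3 (15.8 and 14.0 FPKM) and Hyou1 (33.2 and 29.4 FPKM) were lower at SAH 7d than at SAH 1d, without a call. The difference between the lists was not tested.

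**Figure D4:**
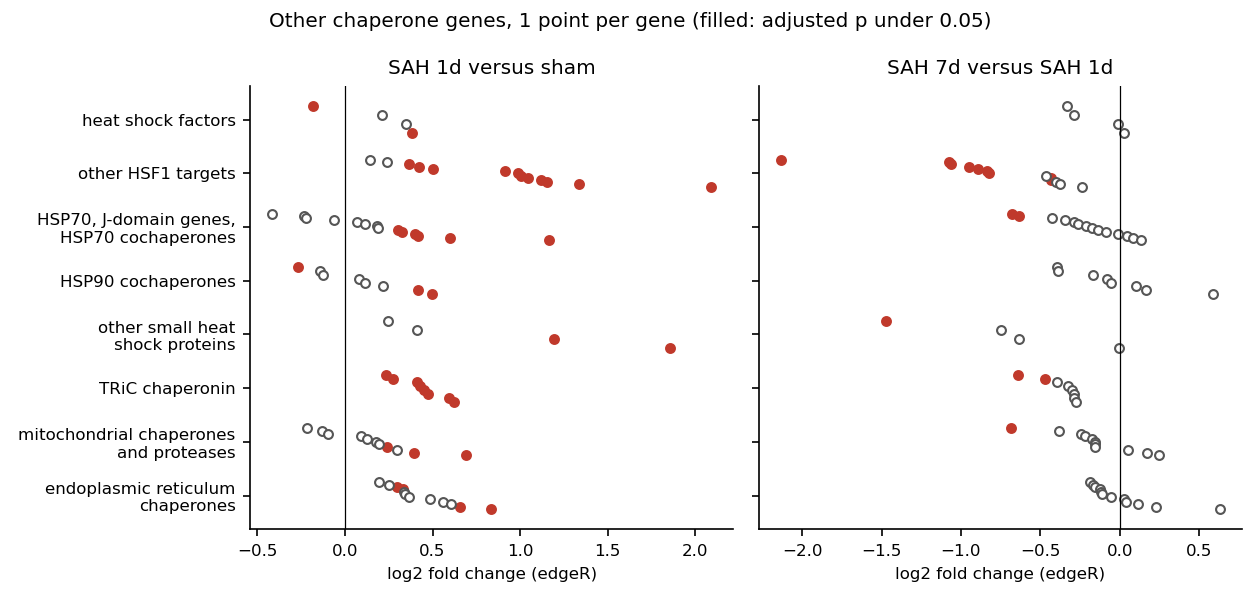
Log2 fold changes of the 74 other chaperone genes by list, 1 point per gene, for SAH 1d versus sham (left) and SAH 7d versus SAH 1d (right), filled where the adjusted p is under 0.05. On the left, filled points lie on the right of 0 except those of Hsbp1 and Ppp5c, and on the right all 15 filled points lie below 0, 9 of them among the HSF1 targets.

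Within groups the 9 genes did not vary as 1 block. Over the 18 libraries all 36 pairs had a positive correlation of log2 CPM, which the shared rise at SAH 1d alone can give, so the correlation of the deviations from the group means is given here as a description (n = 18, from shared libraries). Bag3 and Hspb1 varied together (r = 0.95 over all libraries, 0.86 within groups). So did Dnajb1 and Hsph1 (0.92 and 0.65), Hsph1 and Hspd1 (0.97 and 0.65) and Hspa8 and Dnajb1 (0.91 and 0.64). The within-group values of the pairs other than Bag3 and Hspb1 did not hold in each group of 6. In sham r was -0.40 for Dnajb1 and Hsph1 and -0.41 for Hsph1 and Hspd1, and at SAH 7d it was 0.24 for Hspa8 and Dnajb1. Hsph1 and Hspb1 had r = 0.80 over all libraries and -0.80 within groups. Within groups r was also negative for Hsp90aa1 with Hspb1 (-0.63) and for Bag3 with Hsp90aa1 (-0.56) and Hsph1 (-0.55). With SAH 7d-5 and SAH 1d-3 left out, the within-group values were 0.74 for Bag3 and Hspb1, 0.37 for Dnajb1 and Hsph1, 0.68 for Hsph1 and Hspd1 and 0.70 for Hspa8 and Dnajb1. They were then -0.49 for Hspb1 with Hsph1 and with Hsp90aa1, and -0.26 and -0.06 for Bag3 with Hsp90aa1 and Hsph1.

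SAH 1d-3 had the highest Hspb1 (377 FPKM, 2.58 times the median of the other 5 SAH 1d libraries) and the highest Bag3 (28.1 FPKM, 1.64 times) of its group. It had the lowest Hsph1 (251 FPKM, 0.534 times), Dnajb1 (54.4 FPKM, 0.691 times) and Hspa8 (516 FPKM, 0.854 times). SAH 7d-5 had the highest Hspb1 (30.4 FPKM, 3.83 times) and Bag3 (14.1 FPKM, 2.64 times) of its group and the lowest Hsph1 (62.7 FPKM, 0.582 times), Hsp90aa1 (285 FPKM, 0.665 times) and Dnajb1 (31.4 FPKM, 0.791 times). Its Hspa8, unlike that of SAH 1d-3, was the highest of its group (491 FPKM, 1.14 times).

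In sham, sham-1 had the highest Hspb1 (7.68 FPKM) and Bag3 (4.64 FPKM) and the lowest Hspa8 (338 FPKM) and Dnajb1 (26.9 FPKM). It was also lowest in the FPKM of Hsph1 (91.8) and Hsp90aa1 (383), but not in their CPM. Hsph1 had 360 CPM in sham-1 and 358 CPM in sham-3, and Hsp90aa1 had 1202 CPM in sham-1 and 1135 CPM in sham-2. Some marker sums of these libraries lay at an end of their group. The summed neuronal level was 6147 CPM in sham-1 and 2383 CPM in SAH 7d-5, each the lowest of its group. It was 5071 CPM in SAH 1d-3, next to the lowest, 5039 CPM in SAH 1d-2, where Hspb1 had 168 FPKM. In sham-1 the astrocyte (3811 CPM), oligodendrocyte (18585 CPM), microglial (455 CPM) and endothelial (202 CPM) sums were the highest of sham. The endothelial sum was 317 CPM in SAH 1d-3, the highest of all libraries. Fibroblast genes of the meninges (4 genes) summed to 2108 CPM in SAH 7d-5 and microglial genes (6 genes) to 2444 CPM, the highest of all libraries, and 3 neutrophil genes summed to 35.2 CPM in SAH 1d-3 and to at most 4.92 CPM in any other library. The part of these cells in the levels of Hspb1, Bag3 and Hsph1 was not tested.

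**Figure D5:**
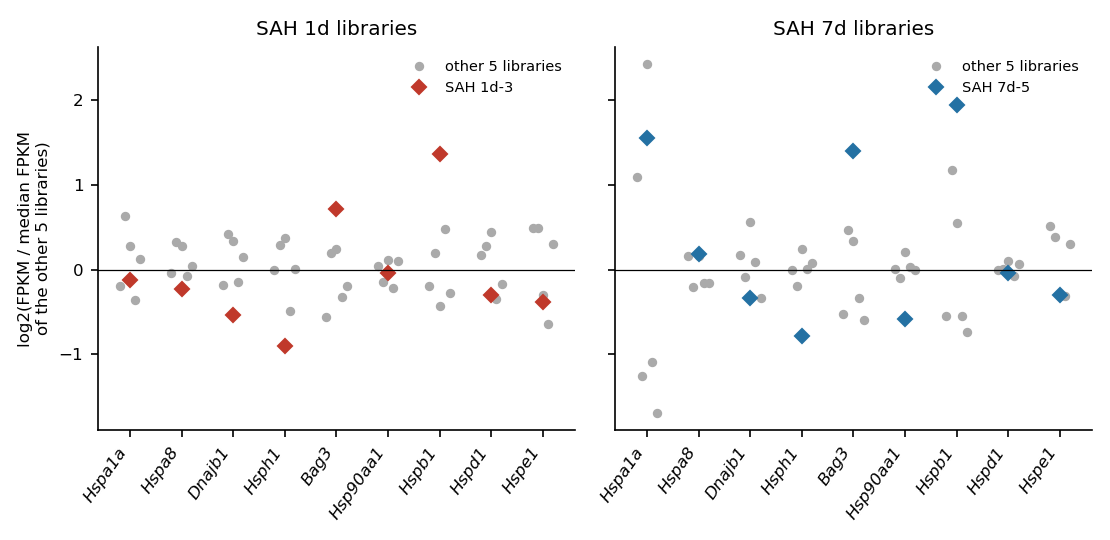
FPKM of each gene relative to the median of the other 5 libraries of its group (log2 scale), with SAH 1d-3 (left) and SAH 7d-5 (right) as diamonds and the other 5 libraries as grey points. In both libraries Bag3 and Hspb1 lie above 0 and Hsph1 below, while Hspd1 stays within the spread of the others.

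The genes most like 4 of the 9 in their pattern were found by the correlation of log2 CPM over the 18 libraries, among tested genes with a symbol. For Hspd1 they were Zfand2a (r = 0.980), Dnaja1 (0.968) and Stip1 (0.965), and for Hspa8 they included Jmjd6 (0.931) and Fkbp4 (0.925). Zfand2a, Dnaja1, Stip1 and Fkbp4 are on the list of HSF1 targets. For Hspa1a they were Jmjd6 (0.923), Phlda3 (0.917) and Rbm17 (0.894), and for Hspb1 Alkbh1 (0.972), Stk40 (0.972) and Trim47 (0.971). Jmjd6, near to both HSP70 genes, had a mean of 6.99 FPKM in sham, 18.4 at SAH 1d and 8.72 at SAH 7d. As with the pairs of the 9 genes, a shared rise at SAH 1d alone can give such correlations, and no within-group values are given for these genes.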

How the data were processed

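RNA from 18 rat cortices was measured, with groups taken from the deposited descriptions. The authors removed reads with adapters and of low quality, aligned the rest to Rnor_6.0 and deposited raw counts and FPKM values per gene and library, unpooled. The submitters' processing notes name fastp, HISAT2, DESeq2 1.16.1 and the mouse build mm9. The program that counted reads, and its strand setting, are not stated there or in the methods. Counts were tested with edgeR 4.0.16 in R 4.3.3 (filterByExpr and TMM on all 18 libraries, quasi-likelihood F test on the 12 libraries compared, two-sided). The study's fold threshold was kept, and SE is the log2 fold change divided by the root of F. DESeq2 1.42.0, limma 3.58.1 and the alternatives given in the closing section were also run, and the tests were checked on simulated data. Total counts were 27270026 to 38271014 per library. Errors are the spread between rats, not counting intervals. FPKM fits used log2(FPKM + 1) of genes with a mean of at least 0.5 FPKM. FPKM ratios used exact permutation tests, and Python 3.11.15 computed them. Companion genes are named by size among those called, at most 3 per list and direction, with the 3 genes closest in pattern to Hspa1a, Hspb1, Hspa8 and Hspd1, of which 1 is not reported here. The genes, lists and tests were chosen with earlier results of these data known.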

Additional observations from a re-analysis of the deposited data

Results flagged for a closer look

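In 33 groups of 6 libraries (each of the 9 genes and 2 ratios in each group), the highest or lowest library was compared with the others by the gap to its nearest neighbour as a share of the range. In 3 of them the gap was larger than Dixon's 95% critical value for 6 samples, and chance alone passes it in about 1 of 20 groups. Bag3 had 14.1 FPKM in SAH 7d-5 and 4.43 to 7.34 FPKM in the other SAH 7d libraries. Hspb1 had 377 FPKM in SAH 1d-3 and 124 to 203 FPKM in the other SAH 1d libraries. Hspb1 also had 7.68 FPKM in sham-1 and 2.81 to 4.42 FPKM in the other sham libraries.

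The change from sham differed between day 7 and day 1 for 8 of the 9 genes, against 1.34% of all tested genes called in either direction. This is the edgeR test of SAH 7d against SAH 1d given above, in which the shared sham libraries cancel, and not a further test. The change at day 7 minus that at day 1, on the log2 scale, was -5.29 for Hspa1a, -3.75 for Hspb1, -2.07 for Hsph1, -1.39 for Hspe1, -1.36 for Bag3, -1.31 for Hspd1, -1.01 for Hsp90aa1 and -0.88 for Dnajb1, with adjusted p between 0.000135 and 0.0348.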

How the results depend on the processing

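At SAH 1d versus sham 9 genes were called in every setting, except 8 where at least 10 counts were required in every library, since Hspa1a has 1 or 2 counts in 3 sham libraries. Leaving out 1 library gave 30 to 45 companion genes there (39 with all, of which 37 were rises), so calls of rises were lost in some fits too. For SAH 7d versus sham the DESeq2 Wald test called 2 of the 9 genes and all other settings 0, also without any 1 library. The log2 fold change of Hsph1 there (-0.08) turned to 0.021 in limma voom with sample quality weights, was -0.15 to 0.029 without 1 library (the latter without SAH 7d-5) and 0.032 with SAH 7d-5 and SAH 1d-3 both left out. For SAH 7d versus SAH 1d, 6 to 9 of the 9 genes were called without 1 library, the 6 without SAH 7d-2 and the 9 without SAH 7d-5. Hspa8, at an adjusted p of 0.0965, was called in 7 settings (adjusted p 0.00381 to 0.0455). The 15 companion genes called lower became 26 with DESeq2, 32 with limma voom, 23 with all 18 libraries in 1 fit and 32 with SAH 7d-5 and SAH 1d-3 both left out. Without 1 library they were 11, without SAH 7d-2, to 26, without SAH 7d-5. With the replicate number as a block, 5 of the 9 genes (not Hspa8, Dnajb1, Bag3 or Hsp90aa1) and 3 companion genes were called in this comparison and all 9 genes at SAH 1d versus sham. Deviations from the group means had r between -0.252 and 0.197 for same-numbered libraries and between -0.268 and 0.378 for libraries with different numbers. Whether same-numbered libraries shared a batch was not tested. Over all genes, 4687 calls at SAH 1d versus sham became 2462 with all 18 libraries in 1 fit, 0 calls at SAH 7d versus sham became 459 with DESeq2 and at most 9 in the other settings, and 248 calls at SAH 7d versus SAH 1d became 1012 with DESeq2, 2736 with limma voom, 779 with all 18 libraries, 403 to 474 in the limma fits of FPKM, 27 with the block, 110 to 1530 without 1 library and 2553 with SAH 7d-5 and SAH 1d-3 both left out. The ratio tests kept their side of the threshold in all settings tried. On the log2(FPKM + 0.1) scale the median of all genes shifted by 0.11 between SAH 1d and sham.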

Other observations

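Hspa1a was detected very unevenly among the sham libraries, with 1 or 2 counts in sham-1, sham-3 and sham-5 and 67 to 99 counts in sham-2, sham-4 and sham-6, at total counts of 27641629 to 33325330. The deposited FPKM divided by the TMM-scaled CPM computed from the counts was 0.217, 0.219 and 0.230 for Hspa1a in sham-1, sham-3 and sham-5. It was between 0.459 and 0.525 in the other 15 libraries, and for Hspa8 it was between 0.453 and 0.537 in all 18. The cause of this difference was not tested.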
